A study of Caenorhabditis elegans with 18 samples.

Results

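mir-232, mir-357 and mir-358 are 3 microRNAs of the nematode Caenorhabditis elegans, and they were chosen by name: mir-232 and mir-357 are grouped by a shared seed, and mir-357 and mir-358 are neighbouring genes. They are 3 of the 176 miRNA names counted in each of 18 small RNA libraries, and all 3 had counts in every library. The libraries came from whole young adult worms grown at 25 °C, with 3 libraries for each of 6 genotypes. Wild type was the N2 Bristol strain. The single mutants carried the alleles alg-2(ok304), alg-1(gk214) or dpf-3(xe68). The alg-1 double mutant carried both xe68 and gk214, and the alg-2 double mutant both xe68 and ok304, drawn as dpf-3;alg-1 and dpf-3;alg-2 in the plots. Each mutated gene was represented by a single allele. The design asks how loss of a miRNA Argonaute changes the miRNA profile and whether loss of dpf-3 alters that change.

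A miRNA acts inside an Argonaute protein, which it guides to messenger RNAs that pair with its seed, the short stretch near its 5′ end. Members of a seed family can therefore meet the same target sites, even when the rest of their sequence differs. The main miRNA Argonautes of C. elegans are ALG-1 and ALG-2, and a mature miRNA that is not held by an Argonaute is generally short-lived. dpf-3 encodes a dipeptidyl peptidase, an enzyme that removes a pair of amino acids from the start of a protein. miRNA genes that lie close together on a strand are often transcribed as 1 precursor, so their levels then share transcription but not later steps. In the reference annotation mir-357 and mir-358 lie next to each other on the same strand. Both fall within the span of symk-1, a gene for a scaffold protein of messenger RNA 3′ end processing, on the opposite strand to it. mir-232 overlaps no protein-coding gene there. Mature sequences were not used here, so the shared seed is taken from the way the members were chosen and was not checked.

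Library totals ranged from 7784638 to 22503629 counts. The members are rare: mir-357 ranked between 83 and 101 in a library by its count, mir-232 between 92 and 110, and mir-358 between 103 and 121. Of their 54 values, 53 were whole numbers within 1e-06, and mir-357 in replicate 1 of the alg-1 double mutant was the exception with 1093.5 counts. Fractions usually arise when a read is divided among several miRNAs. Levels are given as CPM, which are counts scaled to a common library total after a TMM composition factor. In RNA from whole worms, fewer cells that make a miRNA and less of it per cell cannot be told apart. Both genotypes with the alg-2 allele, 6 libraries in all, have a library name among their labels and the remaining 12 libraries have none. In comparisons of those 6 with wild type, an effect of genotype and one of library set cannot be told apart. Nothing in the labels shows replicates to be separate cultures, and the p-values therefore cover only the spread among these libraries, possibly a technical one. The messenger RNAs of the mutated genes are not measured in small RNA libraries, so the genotype labels were not checked against them.

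mir-232 was high in alg-1 and low elsewhere. Its 3 libraries stood at 20.4, 17.2 and 18.9 CPM in wild type, from 287 to 331 counts. In dpf-3 they stood at 14.7, 15.3 and 14.8 CPM. The alg-1 libraries held 53.5, 60.6 and 56.5 CPM, from 624 to 714 counts, and lay above all 15 other libraries. The alg-1 double mutant returned to the range of the other genotypes, with 19.5, 17.1 and 15.1 CPM. alg-2 had 14.4, 15.1 and 18.2 CPM. The alg-2 double mutant had 16.1, 14.7 and 17.7 CPM. In order of the mean, alg-1 came first with 56.9 ± 3.58 CPM (SD, n = 3), then wild type with 18.8 ± 1.58, the alg-1 double mutant, the alg-2 double mutant, alg-2 and last dpf-3 with 14.9 ± 0.334. Below alg-1, each genotype overlapped with the next in that order.

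mir-357 was lowest in alg-1 and highest in dpf-3 and the alg-2 double mutant. Wild type libraries held 66.6, 76.5 and 72.0 CPM. dpf-3 libraries were higher, at 113, 108 and 99.1 CPM, with no overlap with wild type. alg-1 libraries were the lowest, at 34.33, 42.01 and 34.97 CPM. In the alg-1 double mutant the level was 87.41, 89.37 and 83.02 CPM, above every alg-1 library and every wild type library. alg-2, at 76.9, 73.2 and 73.7 CPM, overlapped with wild type. The alg-2 double mutant, at 105, 113 and 95.1 CPM, overlapped with dpf-3. By the mean, dpf-3 (107 ± 7.19, SD, n = 3) and the alg-2 double mutant (104 ± 8.93) overlapped, and the alg-1 double mutant (86.6 ± 3.25) lay apart below them. alg-2 (74.6 ± 1.98) and wild type (71.7 ± 4.93) overlapped, and alg-1 (37.1 ± 4.26) lay apart at the bottom.

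mir-358 was the rarest of the members and shared the low level in alg-1. Wild type libraries held 12.5, 11.7 and 15.0 CPM. alg-1 libraries held 4.80, 3.73 and 5.44 CPM, which rest on 61, 44 and 60 counts. All 15 other libraries were above them. dpf-3 libraries held 18.5, 17.1 and 17.9 CPM, and those of the alg-1 double mutant held 16.1, 19.3 and 16.7 CPM. Both groups lay above wild type. alg-2, at 15.6, 14.6 and 18.8 CPM, reached into the wild type range, and the alg-2 double mutant, at 16.2, 15.1 and 15.1 CPM, lay just above it. The 4 highest genotypes, from dpf-3 (17.8 ± 0.721, SD, n = 3) to the alg-2 double mutant (15.5 ± 0.606), each overlapped with the next. Wild type (13.1 ± 1.71) lay apart from the alg-2 double mutant, and alg-1 (4.66 ± 0.860) from wild type. The SD between alg-1 libraries was 18.5% of their mean, and counting error alone gives 13.5% at that depth.

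**Figure D1:**
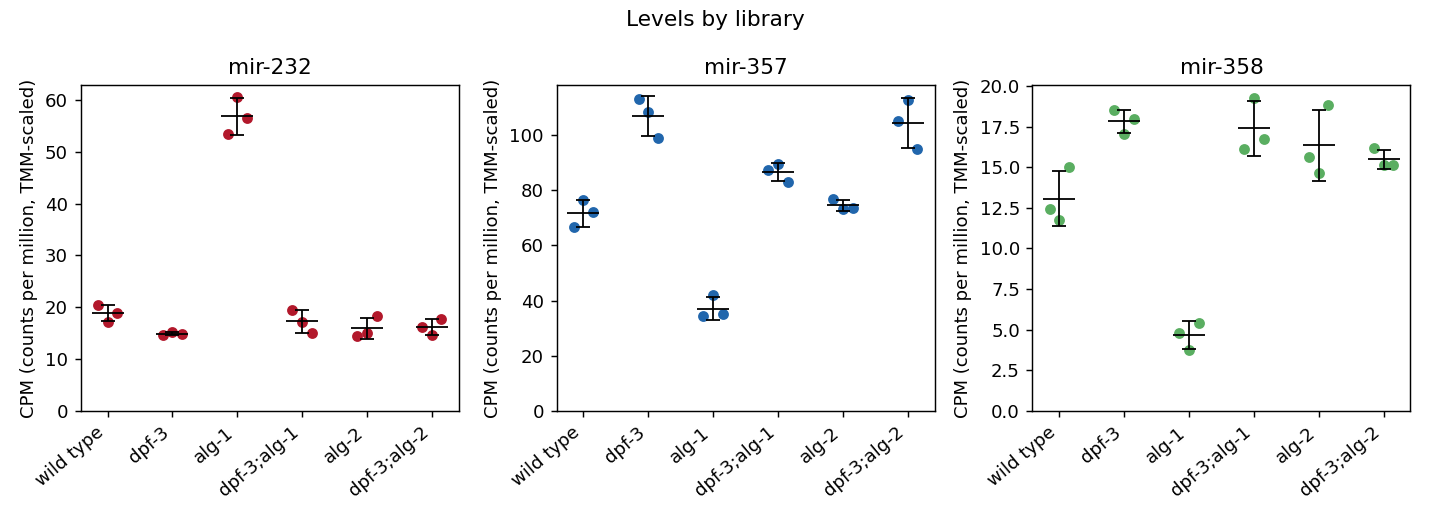
Level of each miRNA in CPM (vertical axis) in the 18 libraries, by genotype; coloured points are libraries, and black bars and whiskers are the mean and SD of 3 libraries. mir-232 stands at 53.5 to 60.6 CPM in alg-1 and at 20.4 CPM or less elsewhere, while mir-357 and mir-358 have their lowest libraries in alg-1.

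Loss of alg-1 moved the seed partners in opposite directions. Against wild type, mir-232 rose 3.02-fold, a log2 change of 1.59 (SE 0.12; edgeR, adjusted p = 1.5e-09). mir-357 fell by 0.95 on the log2 scale (SE 0.10; edgeR, adjusted p = 1.6e-07), and its neighbour mir-358 fell by 1.49 (SE 0.16; adjusted p = 7.9e-08). All 3 members passed the test, in a comparison where 84.2% of the 139 miRNAs tested did, so a call alone says little here. By size, the rise of mir-232 was number 16 of 139 from the top, and the fall of mir-358 number 27 and that of mir-357 number 38 from the bottom. Most of the profile moves in this comparison, so the scaling matters. Without dpf-3 replicate 2, a library outside this comparison, mir-232 stood at 1.33, mir-357 at -1.22 and mir-358 at -1.76, and all passed. With upper quartile factors, which shift the median log2 change of all miRNAs from -0.08 to 1.07, mir-357 stood at 0.21 and mir-358 at -0.32, and neither passed, while mir-232 stood at 2.76. Relative to that median, mir-357 was at -0.87 with TMM and -0.86 with upper quartile factors, mir-358 at -1.40 and -1.39, and mir-232 at 1.68 and 1.69. A change of factors shifts all miRNAs of a comparison by nearly the same amount, so these pairs of values agree by arithmetic. They place the members beside the median miRNA and do not show which scaling is right.

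When alg-1 animals also lacked dpf-3, all 3 members moved the other way. The alg-1 double mutant was compared with alg-1, whose libraries also served in the comparison with wild type, so the change of sign is not independent of it. mir-232 fell by 1.72 on the log2 scale (SE 0.13; edgeR, adjusted p = 1.05e-09), the 11th lowest of 139. mir-357 rose by 1.22 (SE 0.11; adjusted p = 7.2e-09) and mir-358 by 1.90 (SE 0.16; adjusted p = 5.1e-09). All 3 passed where 76.3% of the miRNAs did. Without dpf-3 replicate 2, also outside this comparison, mir-232 stood at -1.45, mir-357 at 1.49 and mir-358 at 2.17, and all passed. With upper quartile factors, which move the median of all miRNAs from -0.14 to -1.27, mir-357 stood at 0.10 and did not pass. mir-358 then stood at 0.77 and mir-232 at -2.84, and both passed. Relative to that median, mir-357 was at 1.37, mir-358 at 2.04 and mir-232 at -1.58, values that hardly depend on the factors and do not settle the scaling.

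The alg-1 double mutant was also set against wild type and against dpf-3. Against wild type, 2 of 3 members passed, beside 56.8% of all miRNAs. mir-357 was higher by 0.27 (SE 0.10; edgeR, adjusted p = 0.031) and mir-358 by 0.41 (SE 0.14; adjusted p = 0.019). mir-232 differed by -0.12, with a 95% interval from -0.39 to 0.14, and did not pass. The call of mir-357 was lost without wild type replicate 1 (0.22) or replicate 3 (0.28), or without replicate 1 (0.27) or replicate 2 (0.25) of the double mutant. That of mir-358 was lost without wild type replicate 1 (0.38) or replicate 2 (0.34), or without replicate 2 of the double mutant (0.33). The call of mir-357 was also lost with RLE factors (0.27) and upper quartile factors (0.32). Against dpf-3, 1 of 3 passed beside 58.3% of all miRNAs: mir-357 stood lower, at -0.30 on the log2 scale (SE 0.10; edgeR, adjusted p = 0.017). That call was lost without dpf-3 replicate 1 (-0.26), without replicate 3 of the double mutant (-0.28), with RLE factors (-0.24), with DESeq2 (-0.24), without the mir-35 family (-0.23) and with those genotypes alone (-0.27). It was -0.57 and passed with upper quartile factors. mir-232 stood at 0.21 (95% interval -0.053 to 0.48) and mir-358 at -0.036 (-0.33 to 0.26).

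Loss of dpf-3 alone raised the neighbours. mir-357 rose by 0.58 on the log2 scale against wild type (SE 0.10; edgeR, adjusted p = 0.00023), a 1.49-fold change and number 15 of 139 from the top. mir-358 rose by 0.45 (SE 0.14; adjusted p = 0.0198). mir-232 fell by 0.34 (SE 0.12; adjusted p = 0.043). All 3 members passed, beside 33.8% of all miRNAs. The call of mir-357 held under every alternative run. Upper quartile factors put mir-357 at 0.89 and mir-358 at 0.75. That of mir-358 was lost without wild type replicate 1 (0.41) or replicate 2 (0.38) or dpf-3 replicate 1 (0.42), with RLE factors (0.39), with a filter at 10 CPM (0.39) and with those genotypes alone (0.43). The fall of mir-232 was the least firm. It was lost under 7 of 12 other settings, among them the replicate block (-0.34; edgeR, adjusted p = 0.065). It was also lost when any of 9 single libraries was left out: wild type replicates 1 and 3, all 3 of dpf-3, alg-1 replicates 2 and 3, replicate 2 of the alg-1 double mutant and replicate 1 of the alg-2 double mutant. Its log2 change then stood between -0.34 and -0.28.

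Loss of alg-2 moved none of the members past the threshold. None of the 3 passed against wild type, where 45.3% of all miRNAs did. The log2 changes were -0.24 for mir-232 (95% interval -0.51 to 0.023), 0.057 for mir-357 (-0.16 to 0.27) and 0.33 for mir-358 (0.031 to 0.62; edgeR, adjusted p = 0.066). mir-358 was past the threshold without wild type replicate 3 (0.44) and when replicate 2 of alg-2 was left out (0.40). With upper quartile factors, which move the median of all miRNAs from 0.06 to 0.87, mir-232 turned to 0.57, and all 3 members passed as higher.

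In alg-2 animals, mir-357 was the member that passed the test on loss of dpf-3. It was higher in the double mutant than in the single one by 0.48 (SE 0.10; edgeR, adjusted p = 0.0030), number 18 of 139 from the top, and its call held when any single library was left out. mir-358 stood at -0.08 (95% interval -0.38 to 0.22) and mir-232 at 0.028 (-0.24 to 0.30). That made 1 of 3 members called, beside 18.7% of all miRNAs. For the alg-2 double mutant against wild type, also 1 of 3 passed, beside 47.5% of all miRNAs. mir-357 was higher by 0.54 (SE 0.10; edgeR, adjusted p = 0.00043), while mir-358 at 0.25 (95% interval -0.053 to 0.54) and mir-232 at -0.21 (-0.48 to 0.054) did not pass. Under upper quartile factors mir-357 stood at 1.41, mir-232 turned to 0.64, and both mir-232 and mir-358 passed as higher.

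The effect of dpf-3 loss itself was compared between backgrounds. In alg-1 animals it differed from that in wild type animals for all 3 members, beside 69.1% of all miRNAs. This difference also equals the alg-1 double mutant against dpf-3 minus alg-1 against wild type. It is therefore not independent of the latter change. The difference of the log2 changes was -1.38 for mir-232 (SE 0.18; edgeR, adjusted p = 1.9e-06), 0.65 for mir-357 (SE 0.15; adjusted p = 0.00077) and 1.45 for mir-358 (SE 0.21; adjusted p = 7.0e-06). It also differed between alg-1 and alg-2 animals for all 3, beside 66.2% of all miRNAs, by -1.75, 0.74 and 1.98. With upper quartile factors, which move the median of all miRNAs in the first of these contrasts from -0.23 to -1.67 and in the second from -0.17 to -1.34, the differences of mir-357 turned to -0.79 and -0.44. The first passed in the opposite direction (edgeR, adjusted p = 0.0012), and the second did not pass. Relative to the median they were 0.89 and 0.90, which again hardly depends on the factors and does not settle the scaling. Those same factors put the difference of mir-358 at 0.023 between alg-1 and wild type animals, which did not pass, and at 0.80 between alg-1 and alg-2 animals, which did. They put mir-232 at -2.82 and -2.92, and both passed. Between alg-2 and wild type animals none of the 3 differences passed, beside 28.1% of all miRNAs. There mir-357 stood at -0.09 (95% interval -0.40 to 0.21) and mir-232 at 0.37 (-0.011 to 0.74). mir-358 stood at -0.53 (-0.94 to -0.11; edgeR, adjusted p = 0.051). It was past the threshold without wild type replicate 3 (-0.64), alg-2 replicate 2 (-0.60), alg-1 replicate 2 or alg-1 replicate 3 (both -0.53), with limma-voom (-0.53), with no composition factor (-0.63) and with upper quartile factors (-0.78).

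**Figure D2:**
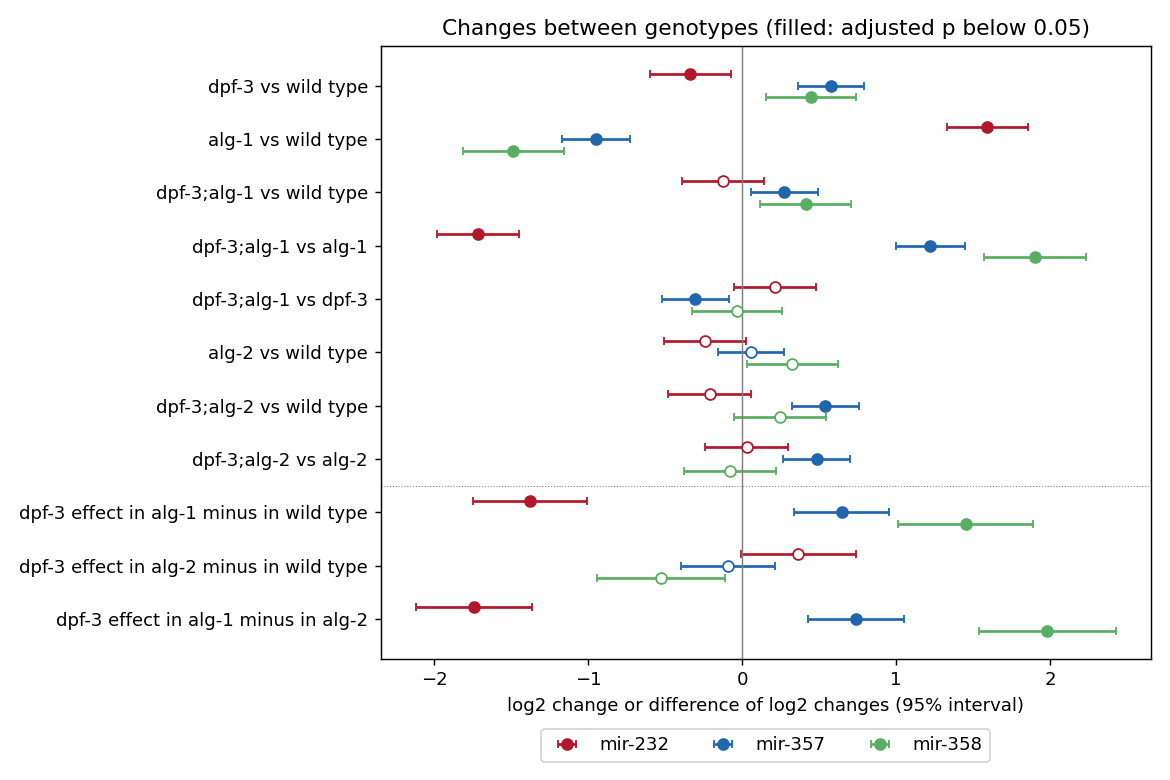
Log2 changes of mir-232, mir-357 and mir-358 (horizontal axis) in 8 comparisons of genotypes, and below the dotted line the 3 differences between effects of dpf-3 loss; whiskers are 95% intervals from the edgeR fit and filled points passed at an adjusted p below 0.05. In alg-1 against wild type mir-232 lies at 1.59 and mir-357 and mir-358 at -0.95 and -1.49, and in dpf-3;alg-1 against alg-1 the signs are the opposite.

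The balance of the seed partners was read inside each library, as the log2 ratio of mir-232 to mir-357 counts, which does not depend on scaling between libraries. In wild type it was -1.71, -2.15 and -1.92, so mir-357 was the more abundant partner. In alg-1 it was 0.64, 0.53 and 0.69, and these were the only 3 libraries with more mir-232 than mir-357. dpf-3 libraries, at -2.95, -2.82 and -2.75, lay furthest toward mir-357 and overlapped with the alg-2 double mutant alone, whose libraries stood at -2.70, -2.93 and -2.42. The alg-1 double mutant stood at -2.16, -2.38 and -2.45, and alg-2 at -2.41, -2.27 and -2.01. The groups lay apart in 7 of 8 comparisons, all but alg-2 against wild type. Each of the 7 had a two-sided exact permutation p of 0.1, the smallest that 3 libraries against 3 allow, and an adjusted p of 0.114 over 8 comparisons. How often the ratios of other miRNA pairs lie apart was not counted, so the number does not set the partners apart. Across genotypes the ratio shifted by 2.55 on the log2 scale from wild type to alg-1 and by -2.95 from alg-1 to its double mutant. The shift was -0.91 from wild type to dpf-3 and -0.45 from alg-2 to its double mutant.

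The share of mir-232 in the sum of the partners was higher in alg-1 than in wild type, and how the sums compare depended on the scaling. With TMM factors their summed level was 90.5 ± 3.36 CPM in wild type and 94.0 ± 7.71 in alg-1 (SD, n = 3), which overlapped. mir-232 made up 20.9% ± 2.52 of the sum in wild type and 60.6% ± 1.39 in alg-1. alg-2 also had a sum of 90.5 ± 1.91 CPM, with 17.6% ± 2.05 from mir-232. The sums were higher in dpf-3, at 122 ± 7.22 CPM, in the alg-2 double mutant, at 121 ± 7.42, and in the alg-1 double mutant, at 104 ± 4.94. In each of these the share of mir-232 was under its wild type mean, at 12.3% ± 0.754, 13.5% ± 2.10 and 16.6% ± 1.48. Under upper quartile factors, an alternative chosen after seeing the data, the sum was 62.6 ± 2.23 CPM in wild type and 146 ± 14.8 in alg-1, without overlap. The shares are the same under any scaling. No test was run on the sums. Reads of different miRNAs can be ligated and amplified unequally, so a sum weights the partners as this library kit did.

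**Figure D3:**
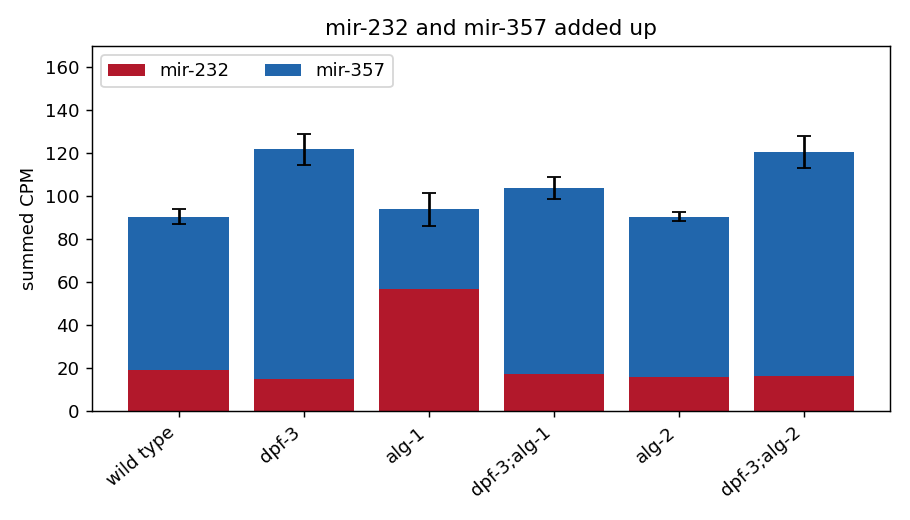
Summed CPM of mir-232 (red) and mir-357 (blue) in each genotype, as stacked means of 3 libraries, with the SD of the sum as whiskers. The bars of wild type and alg-1 reach 90.5 and 94.0 CPM with the TMM factors drawn here (62.6 and 146 with upper quartile factors), and mir-232 fills 20.9% of the first and 60.6% of the second.

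The log2 ratio of the neighbours, mir-357 to mir-358, was 2.42, 2.70 and 2.26 in wild type, where mir-357 had about 5.50 times the counts of mir-358. dpf-3 stood at 2.61, 2.67 and 2.47, in the range of wild type. alg-1 stood at 2.83, 3.48 and 2.68, and the alg-1 double mutant below it at 2.43, 2.21 and 2.31. alg-2 held 2.30, 2.32 and 1.97, and the alg-2 double mutant lay above it at 2.70, 2.90 and 2.65. Groups lay apart in 3 of 8 comparisons. The mean of the alg-1 double mutant differed from that of alg-1 by -0.68 and from that of dpf-3 by -0.26, and the mean of the alg-2 double mutant from that of alg-2 by 0.55. Each had a two-sided exact permutation p of 0.1, the smallest possible, and an adjusted p of 0.267 over 8 comparisons. The number of comparisons apart was not counted for other miRNA pairs. The shift of 0.53 from wild type to alg-1 had an exact permutation p of 0.2. Without alg-1 replicate 2, the library with 44 counts of mir-358, it was 0.29, and the difference between the alg-1 double mutant and alg-1 was -0.43 in place of -0.68. Whether the effect of dpf-3 loss on the ratio differs between alg-1 and alg-2 animals was not tested.

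**Figure D4:**
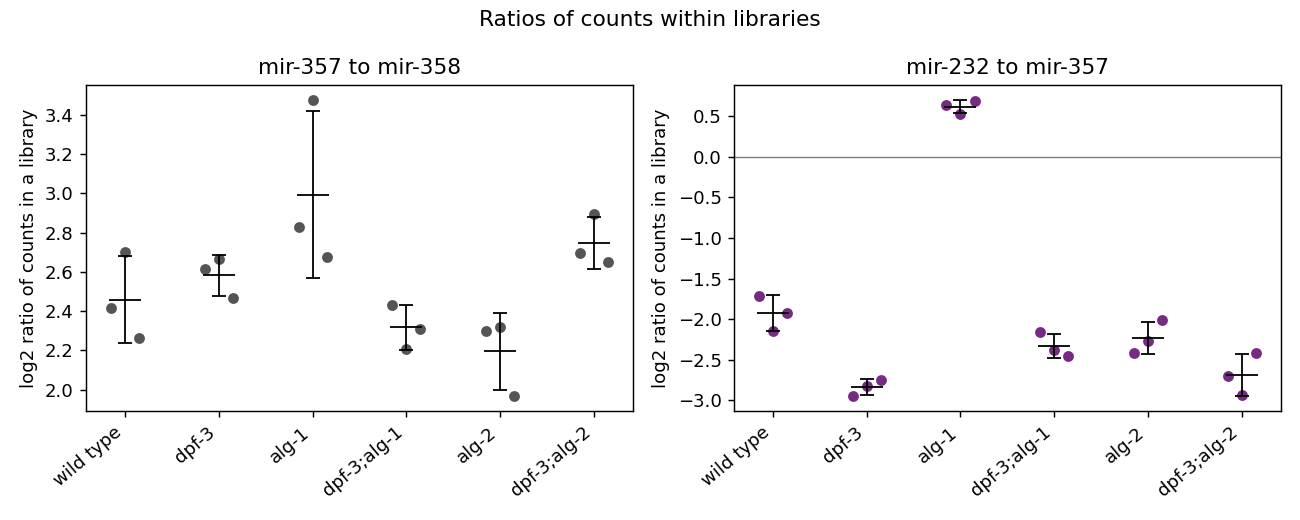
Log2 ratio of counts within each library (vertical axis) by genotype, for mir-357 to mir-358 on the left and mir-232 to mir-357 on the right; points are libraries, and bars and whiskers the mean and SD of 3. On the right the 3 alg-1 libraries alone lie above 0, at 0.53 to 0.69, and on the left alg-1 replicate 2 lies highest, at 3.48.

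Other neighbouring miRNA genes give a scale for this. In the reference annotation 31 pairs of tested miRNAs lie next to each other on 1 strand with starts within 10 kb. For each, the SD over the 6 genotype means of the log2 ratio measures how much the ratio varied. For mir-357 and mir-358 it was 0.29, the 6th smallest of 31, where the median was 0.48 and the range 0.054 to 0.98. Families were listed from background knowledge, and among the 14 pairs not listed as 1 family it was the 4th smallest. mir-74 and mir-75, just before it in order, had 0.24, and mir-240 and mir-786, just after it, 0.31. The pair with the smallest SD, mir-64 and mir-65, is of 1 family, and so is the pair with the largest, mir-37 and mir-38, and reads that fit both members may make these uncertain. mir-357 and mir-358 were both called, in the same direction, in 4 of the 8 comparisons of genotypes and never in opposite directions. Of the 31 pairs, 25 were never called in opposite directions and 11 were called the same way in at least 4 comparisons, so this count does not set the pair apart. Those comparisons share libraries. No test was made of this order.

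**Figure D5:**
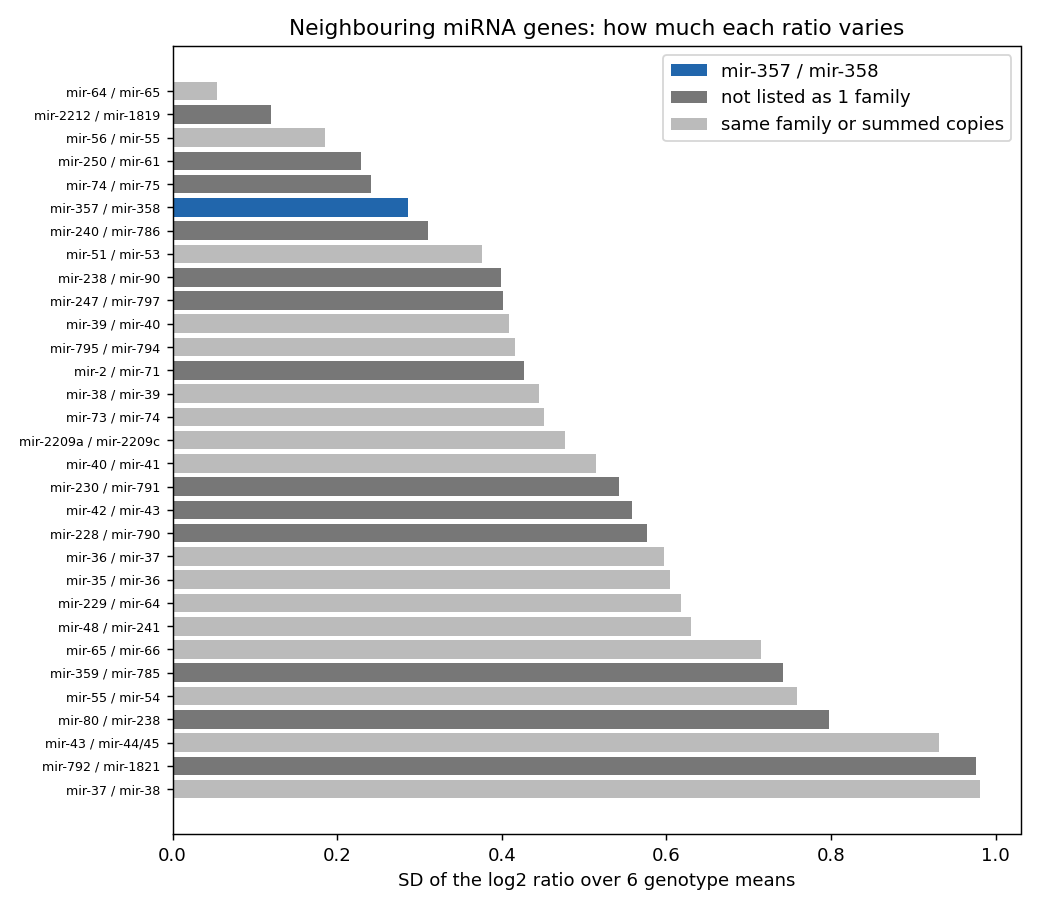
SD over 6 genotype means of the log2 ratio (horizontal axis) for 31 pairs of neighbouring miRNA genes, in order of size; dark grey pairs are not listed as 1 family, and light grey pairs are, or contain the summed mir-44/45. mir-357 with mir-358, in blue, is 6th smallest, at 0.29.

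The miRNAs most like each member were sought by Pearson's r of mean log2 CPM over the 6 genotypes, among 105 other miRNAs with at least 10 CPM and a range of at least 0.5. Such an r rests on 6 points that share libraries and scaling, and is given as a description. Each member lay farthest from its other genotypes in alg-1, and mir-232 stood apart there alone. An r near either end can therefore come from alg-1 by itself. mir-232 was followed most closely by mir-1829c (r = 0.99), then mir-60, mir-233, mir-54 and mir-76 (0.97 to 0.99). mir-1829c went from 50.5 ± 2.75 CPM in wild type to 128 ± 3.67 in alg-1 and 52.8 ± 6.49 in the alg-1 double mutant (SD, n = 3). mir-60, a miRNA of the intestine, stood at 2057 ± 243, 3236 ± 176 and 1957 ± 238 CPM in those genotypes. Its log2 change from wild type to alg-1 was smaller than that of mir-232, at 0.65 against 1.59. With r taken over the 18 libraries, mir-76 was only 16th for mir-232. Reads of mir-54 and mir-1829c may be shared with their near relatives, which makes their levels uncertain.

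mir-357 was most like mir-59 (r = 0.97), and its neighbour mir-358 came next (0.94), before mir-786, mir-241 and mir-85 (0.91 to 0.93). With RLE factors mir-358 was 3rd, and with r taken over the 18 libraries it was 5th. The median r of the 31 neighbouring pairs over the 6 genotypes was 0.90, so 0.94 does not set this pair apart. mir-59 had 1925 ± 175 CPM in alg-1, against 4262 ± 279 in wild type, 5188 ± 72.0 in dpf-3 and 5580 ± 182 in the alg-1 double mutant (SD, n = 3). In the alg-2 set it had 4383 ± 437 in alg-2 and 5871 ± 334 in the alg-2 double mutant. mir-358 was most like mir-85 (0.97), followed by mir-1817, mir-59, mir-786 and mir-240 (0.96 each), with mir-357 the 9th of 105. A high r did not mean a like size: mir-85 changed by -4.92 from wild type to alg-1 (SE 0.14; edgeR, adjusted p = 1.5e-15) and mir-358 by -1.49. Nor did it mean a like change elsewhere: in dpf-3 against wild type mir-85 stood at -0.0077 and mir-358 at 0.45. At the other end, mir-358 ranked last of 105 for mir-232 (r = -0.99), and mir-357, its seed partner, 92nd (-0.94).

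Marker miRNAs of tissues moved with the genotypes too. The oocyte and embryo markers, mir-35 to mir-42, all 8 of them tested and none at 0, took 11.7% to 13.5% of the counts in wild type libraries and 0.331% to 0.348% in alg-1. They took 1.66% to 2.98% in dpf-3, 4.75% to 9.05% in the alg-1 double mutant, 0.398% to 0.495% in alg-2 and 0.440% to 0.466% in the alg-2 double mutant. alg-2 and the alg-2 double mutant had nearly as little of these markers as alg-1. All libraries of both carry the library name label, so their low share may belong to that set of libraries or to the allele. The glia marker mir-228 took 0.530% to 0.579% in wild type and 1.89% to 2.05% in alg-1, and 0.606% to 0.791% in the alg-1 double mutant. Its lowest and highest libraries in the other genotypes were at 0.592% and 0.924%. The 2 intestine markers, mir-60 among them, together took 0.210% to 0.267% in wild type and 0.298% to 0.346% in alg-1. They took 0.221% to 0.238% in the alg-1 double mutant and 0.217% to 0.269% over the other genotypes. mir-60 was also named above as most like mir-232 after mir-1829c, so the intestine sum is not separate from that likeness. The 5 neuron markers took 0.1199% to 0.1291% in wild type and 0.193% to 0.265% in alg-1. In the alg-1 double mutant they took 0.176% to 0.251%, which overlapped with alg-1. They took 0.112% to 0.158% in dpf-3, 0.143% to 0.170% in alg-2 and 0.0729% to 0.106% in the alg-2 double mutant. The muscle marker mir-1 took 14.2% to 16.3% in wild type, 13.7% to 14.2% in alg-1, 17.1% to 18.7% in the alg-1 double mutant and 15.5% to 20.8% over the other genotypes. The part of tissue make-up in the changes of the 3 members was not tested.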

How the data were processed

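Small RNA libraries of young adult worms were made with a NEBNext kit from Trizol RNA and size-selected on a gel near 140 bp, per the labels' protocols. Bowtie 0.12.7 was used, per the submitters' processing notes. Build, miRNA annotation and counting rule were not given in the sources used here. Coordinates are therefore left out, and the Ensembl release 115 annotation served only to find neighbouring genes. The authors deposited 5 columns for 176 names, which hold expected counts without normalization. Column 5, the sum of columns 3 and 4, was used after rounding. The entries of mir-44 and mir-45 were identical in every library and were summed.

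Counts were tested with edgeR 4.0.16 (R 4.3.3; quasi-likelihood, robust, TMM, genotype as the only term) on all 18 libraries. The low-count filter kept 139 miRNAs, all 3 members among them, and left 12 residual degrees of freedom. Calls are at a Benjamini-Hochberg adjusted p below 0.05 over 139 miRNAs. SEs come from the change and its F statistic. Ratios used counts plus 0.5 and two-sided exact permutation tests in SciPy 1.17.1. The fit was tested on simulated data in which a minority of miRNAs changed, equally up and down, in alg-1 alone. That setting lacks the wide changes of these data, so it cannot bear on the choice of scaling. Members, lists and tests were chosen with earlier results of these data known. Named miRNAs are the members, the 5 most like each, and the neighbouring pairs at the ends of the order and beside mir-357 and mir-358. Alternatives were other scaling (RLE, upper quartile, none), filters, DESeq2 1.42.0, limma-voom (limma 3.58.1), a replicate block and each library left out.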

Additional observations from a re-analysis of the deposited data

Results flagged for a closer look

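The effect of dpf-3 loss differed between backgrounds for all 3 members when alg-1 animals were set against wild type (beside 69.1% of all miRNAs) or alg-2 animals (beside 66.2%), by tests of the difference itself in the edgeR fit. None of the 3 passed between alg-2 and wild type animals. For mir-232 the log2 change on loss of dpf-3 was -0.34 in wild type animals, -1.72 in alg-1 animals and 0.028 in alg-2 animals. The effect in alg-1 animals lay -1.38 from that in wild type and -1.75 from that in alg-2 animals. For mir-357 the changes were 0.58, 1.22 and 0.48, and the effect in alg-1 animals was larger by 0.65 than in wild type and by 0.74 than in alg-2 animals. For mir-358 they were 0.45, 1.90 and -0.08, with differences of 1.45 and 1.98. The libraries of alg-1 and its double mutant are shared by both differences. The first also equals the change from dpf-3 to the alg-1 double mutant minus that from wild type to alg-1. For mir-232, mir-357 and mir-358 the former was 0.21, -0.30 and -0.036, and the latter 1.59, -0.95 and -1.49. The first differences therefore restate in large part the change in alg-1. With upper quartile factors the first difference of mir-357 was -0.79 and passed in the opposite direction (edgeR, adjusted p = 0.0012), the second was -0.44 and did not pass, and the first of mir-358 was 0.023 and did not pass.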

How the results depend on the processing

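The changes of mir-232 in alg-1 and from alg-1 to its double mutant with dpf-3, and those of mir-357 in dpf-3, in the alg-2 double mutant and from alg-2 to its double mutant, kept direction and call under all alternatives run. Their sizes changed by over 1.5 times with upper quartile factors, apart from that of mir-357 from alg-2 to the double mutant. With single libraries left out, the difference in mean log2 ratio of mir-357 to mir-358 ranged from 0.29 to 0.69 for alg-1 against wild type. For the alg-1 double mutant against alg-1 this difference ranged from -0.84 to -0.43. The cause of the changes below was not tested, apart from the shift of the median given with upper quartile factors.

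In dpf-3 against wild type the log2 change of mir-232 (-0.34) lost its call with upper quartile factors (-0.027), no composition factor (-0.24), no filter (-0.33), without the mir-35 family (-0.33), with the genotypes of the contrast alone (-0.35), and ranged from -0.40 to -0.28 with single libraries left out. mir-358 (0.45) lost it with RLE factors (0.39), a filter at 10 CPM (0.39) and the genotypes alone (0.43), and ranged from 0.38 to 0.56.

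Upper quartile factors put mir-357 at 0.21 and mir-358 at -0.32 in alg-1, and mir-357 at 0.10 from alg-1 to the double mutant. In alg-2 they gave 0.57, 0.87 and 1.14 for mir-232, mir-357 and mir-358, and in the alg-2 double mutant 0.64 and 1.11 for mir-232 and mir-358. They moved the effect of dpf-3 in alg-1 against wild type animals to -0.79 for mir-357 and 0.023 for mir-358, that in alg-1 against alg-2 animals to -0.44 for mir-357, and that in alg-2 against wild type animals to -0.78 for mir-358. The difference of mir-232 between the alg-1 double mutant and dpf-3 turned to -0.056. The summed CPM of mir-232 and mir-357 was then 146 in alg-1, 74.1 in its double mutant, 110.1 in alg-2, 152 in its double mutant, 62.6 in wild type and 105 in dpf-3, a setting added after seeing the data. With no composition factor it was 129 in dpf-3 and 109 in the alg-1 double mutant. The split of calls in alg-1 went from 59 higher and 58 lower to 94 and 25.

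In the alg-1 double mutant against wild type mir-357 was 0.27 with RLE and 0.32 with upper quartile factors, and 0.22 to 0.32 with single libraries left out, and mir-358 0.33 to 0.52. Against dpf-3, mir-357 lost its call with RLE (-0.24), DESeq2 (-0.24), without the mir-35 family (-0.23) and with the genotypes alone (-0.27), and ranged from -0.36 to -0.26. mir-358, not called there, was 0.024 with RLE, 0.024 with DESeq2, 0.039 without the mir-35 family and 0.015 with no filter, and ranged from -0.12 to 0.017.

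In alg-2 against wild type mir-357, not called, was -0.0054 with a filter at 10 CPM and -0.0038 with the genotypes alone, and ranged from -0.033 to 0.11, and mir-358 from 0.21 to 0.44. From alg-2 to its double mutant mir-232, not called, was -0.037 with RLE, -0.033 with DESeq2 and -0.0056 without the mir-35 family, and ranged from -0.043 to 0.14, and mir-358 from -0.15 to 0.033. The effect of dpf-3 on mir-358 in alg-2 against wild type animals was -0.63 with no composition factor and -0.53 with limma-voom, and ranged from -0.64 to -0.41.

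Counts of calls among all miRNAs moved by over 1.5 times in alg-2 against wild type (63 in the main setting, 111 with upper quartile factors, 36 with a replicate block within library sets), the alg-2 double mutant against wild type (66, then 118 and 39), the alg-2 double mutant against alg-2 (26, then 14 with a filter at 10 CPM) and the effect of dpf-3 in alg-2 against wild type animals (39, then 18 to 46, with 18 without wild type replicate 1 and 22 without alg-2 replicate 1). Replicate numbers are shared between genotypes, but correlations of same-numbered libraries ran from -0.57 to 0.44, and 14 of 45 exceeded 0.1. The highest were of dpf-3 with the alg-1 double mutant, at 0.44 and 0.43 for replicates 1 and 2, with -0.16 for replicate 3. No general pairing by number was seen, and pairing among some genotypes was not excluded. 6 of 18 libraries correlated best with their own number. With the replicate block, over all libraries or within library sets, mir-232 in dpf-3 stood at -0.34 both times and lost its call, and no other call of a member changed.

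Depth limits mir-358 most, with 44 to 61 counts per alg-1 library.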
